A study of Mus musculus with 8 samples.

Results

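*Piezo2*, *Tmc3*, *Nkx2-9*, *Adgrg6* and *St8sia5* were examined in oligodendrocytes of aged mouse brain, 5 of the 20354 genes in the table of oligodendrocyte counts. They were put together because earlier results of these data had placed them in oligodendrocytes of white matter and not, or hardly, in those of gray matter. That contrast, and the clusters drawn from the same cells, chose the genes, so levels by tissue and by cluster are given as a description. Cells of 24-month-old mice were sequenced on the 10× platform as 8 libraries. Wild-type mice, labelled C57BL/6, gave 2 libraries of gray matter and 2 of white matter. Mice labelled *Rag1* knockout gave 1 library of gray matter and 3 of white matter. Their strain is labelled NOD.129S7(B6)-Rag-1tm1Mom/J, whereas the study's methods give B6.129S7-Rag1tm1Mom/J on C57BL/6J, so the background of these mice remains unclear. *Rag1*-/- mice lack mature T and B cells. Gray matter was frontal cortex, and white matter was optic tract, medial lemniscus and corpus callosum, so brain region and tissue cannot be told apart. All tissue was dissociated with actinomycin D, an inhibitor of transcription, and sorted for live cells. The labels give 2 combined tissue samples for a library, and the gray and white matter libraries of a batch came from the same mice. Per the study's list of mice, the libraries were pools of mice except *Rag1*-/- white matter libraries 2 and 3, which were of single mice.

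PIEZO2 is a mechanically gated ion channel, known best from touch and proprioceptive neurons. TMC3 belongs to the transmembrane channel-like family, which includes the channels of mechanotransduction in hair cells. NKX2-9 is a homeodomain transcription factor of ventral neural progenitors. ADGRG6, or GPR126, is an adhesion G protein-coupled receptor that raises cAMP and is needed in Schwann cells for myelination of peripheral nerve. ST8SIA5 is a sialyltransferase that adds sialic acid to gangliosides, the sialylated glycolipids of cell membranes. Oligodendrocytes make the myelin of the central nervous system, and white matter is where myelinated axons run in bundles.

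The cells were 15604 oligodendrocytes named by the authors, 2458 from gray and 13146 from white matter. They numbered 284 to 4106 a library and held 2754274 to 44269555 unique molecular identifiers (UMIs) a library, with a median of 8669 to 12926 UMIs a cell. The oligodendrocyte markers *Mbp*, *Mog*, *Mag*, *Cnp*, *Mobp*, *Cldn11* and *Mal* were detected in every library. These 7 summed to 17996 to 23957 UMIs per 1000000 (CPM) in gray and 19741 to 26706 CPM in white matter and overlapped between tissues, whereas the sum over the whole list of oligodendrocyte markers was higher in every white matter library. Markers of microglia summed to 62.7 to 623 CPM, those of astrocytes to 282 to 351 CPM in gray and 129 to 189 CPM in white matter, and those of neurons to 8.38 to 11.6 CPM in gray and 0.967 to 2.29 CPM in white matter. Of other cell types, the marker sums higher in every white than in every gray matter library, as the levels of the 5 genes were, were those of ependymal or choroid plexus cells (17.1 to 18.4 CPM in gray and 48.5 to 56.0 CPM in white matter), of neuroblasts (76.5 to 103 and 134 to 178 CPM) and of fibroblasts (0.158 to 0.363 and 0.4997 to 1.58 CPM). Their part in the levels of the 5 genes was not tested. Pairs of libraries shared 0 to 5 cell barcodes. The 2 genotypes were run in separate batches with other Cell Ranger versions and gene lists, so genotype and batch cannot be told apart.

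The 250 bases before the start sites of *Tmc3* and *Nkx2-9* are shown, as these genes shared the Oligo2 clusters described further on. They were taken from RefSeq (GRCm38.p6), whose promoter table held 3 of the 5 genes. The window of the third, *Adgrg6*, lies inside the gene as GENCODE vM21 has it, not before its start, and is not shown. Capitals mark E-boxes (CANNTG, the core that basic helix-loop-helix factors such as OLIG2 recognise) and the core AAGTG of NKX2 factors, searched on both strands.
*Tmc3*, chr7:83584681-83584930, plus strand: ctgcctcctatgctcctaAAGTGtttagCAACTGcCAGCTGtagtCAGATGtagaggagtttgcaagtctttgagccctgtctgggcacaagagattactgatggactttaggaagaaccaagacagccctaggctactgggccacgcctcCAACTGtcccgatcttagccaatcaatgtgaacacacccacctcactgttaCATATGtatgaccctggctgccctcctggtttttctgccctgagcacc
*Nkx2-9*, chr12:56613285-56613534, minus strand: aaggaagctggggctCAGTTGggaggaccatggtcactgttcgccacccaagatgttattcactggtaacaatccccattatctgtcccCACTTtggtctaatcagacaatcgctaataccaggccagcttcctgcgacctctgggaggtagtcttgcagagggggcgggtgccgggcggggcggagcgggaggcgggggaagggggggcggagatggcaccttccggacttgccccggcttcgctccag
The *Tmc3* window held 5 E-boxes and 1 NKX2 core, and the *Nkx2-9* window held 1 of each. Neither held the SOX core ACAAAG or the TEAD core GGAATG. Over the same 250 bases of 32851 promoters, 66.2% had an E-box, 40.7% an NKX2 core, 16.5% a SOX core and 12.6% a TEAD core. Both motifs found are thus common in such windows. Their GC content was 51.2% and 61.6%, against a median of 52.4%. *Tmc3* overlaps the antisense gene *Gm16638*, whereas *Nkx2-9* overlaps no other gene of GENCODE vM21.

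*Piezo2*, the mechanically gated channel, had no UMI in gray matter oligodendrocytes. The gene lies at chr18:63010213-63387183 on the minus strand and overlaps 1 gene on each strand. It was at 0 in WT gray matter libraries 1 and 2 and in the *Rag1*-/- gray matter library. In WT white matter libraries 1 and 2 it was at 11.3 and 19.9 CPM, and in *Rag1*-/- white matter libraries 1, 2 and 3 at 10.3, 8.94 and 14 CPM. The 2458 gray matter cells without a *Piezo2* UMI allow a share of up to 0.122%, and 1106 of 13146 white matter cells had one. With the gray matter set at 3 UMIs over all its libraries, *Piezo2* was at least 119-fold higher in white matter. Among 10634 genes with at least 200 UMIs in white matter oligodendrocytes, 6 had none in gray matter (0.0564%). *Piezo2* had the most of them in white matter with 2009 UMIs, and the others were *Gm32122*, *Igkc*, *Barx2*, *Chga* and *Gm44658*, with 202 to 725 UMIs.

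*Tmc3*, of the channel-like family, was detected in both tissues. It was at 1.82 and 2.93 CPM in the WT gray matter libraries and 2.27 CPM in that of *Rag1*-/- mice. In white matter it was at 12.5 and 18.3 CPM in WT and 13.6, 13.4 and 18.4 CPM in *Rag1*-/- libraries. Every white matter library was above every gray matter library, with a pooled ratio of 6.43.

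*Nkx2-9*, the transcription factor of the group, was at 10.9 and 10.4 CPM in WT and 11.5 CPM in *Rag1*-/- gray matter. In white matter it was at 22.8 and 35.9 CPM in WT and 41.0, 45.6 and 46.9 CPM in *Rag1*-/- libraries. The groups of tissue did not overlap, but its pooled ratio of 3.79 was the smallest of the 5.

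*Adgrg6*, the receptor, lies at chr10:14402583-14545659 on the minus strand. It was at 1.45 and 1.11 CPM in WT and 1.55 CPM in *Rag1*-/- gray matter. In white matter it was at 6.16 and 10.7 CPM in WT and 9.49, 10.7 and 12.3 CPM in *Rag1*-/- libraries, a pooled ratio of 8.16. *St8sia5*, the ganglioside enzyme, lies at chr18:77185839-77258771 on the plus strand. Like *Adgrg6*, it overlaps 2 genes on the other strand. It was at 0.363 and 0.158 CPM in WT and 0.207 CPM in *Rag1*-/- gray matter, 5 UMIs in all, and at 5.33, 13.5, 7.02, 6.33 and 12.2 CPM in the white matter libraries in the same order, a pooled ratio of 52.1. For all 5 genes, each of the 5 white matter libraries was above each of the 3 gray matter libraries. This contrast chose the genes, and 6.82% of the 10837 genes with at least 200 UMIs did the same.

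**Figure D1:**
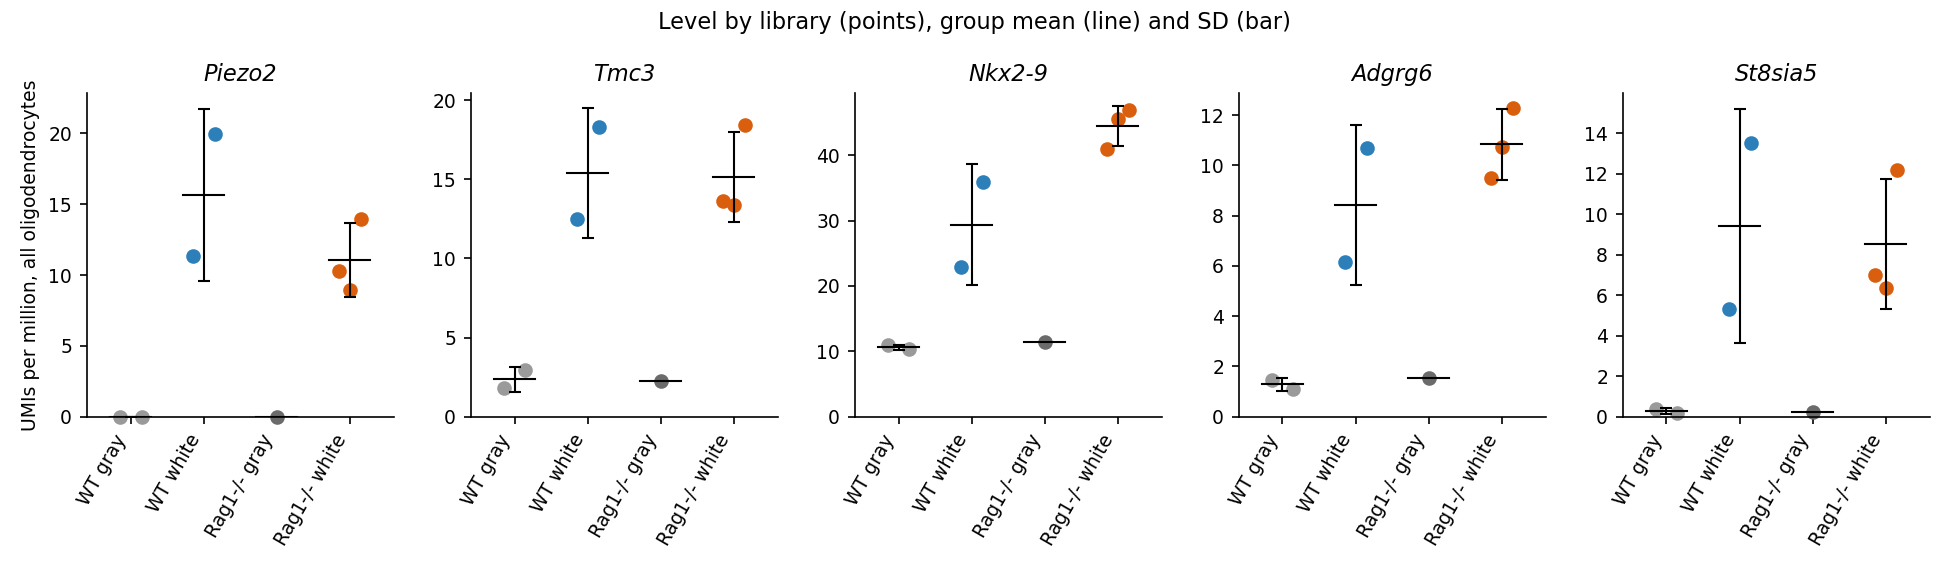
Level of each gene in CPM over all oligodendrocytes of a library, with 1 point a library, the mean as a line and the SD as a bar in groups of 2 or more libraries. White matter libraries lie above gray matter libraries in each panel, *Piezo2* is at 0 in gray matter, and *Nkx2-9* is detected in gray matter at 10.4 to 11.5 CPM.

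Among oligodendrocytes, and in the counts that chose the genes, "white-matter-only" described *Piezo2* and, apart from 5 cells, *St8sia5*. The data go against it for *Tmc3*, *Nkx2-9* and *Adgrg6*, which had UMIs in 59, 138 and 20 gray matter oligodendrocytes. The fitted differences between tissues come from the contrast that chose the genes. In WT mice the log2 fold change of white over gray matter was 2.58 ± 0.32 (SE) for *Tmc3*, 1.52 ± 0.23 for *Nkx2-9*, 2.89 ± 0.38 for *Adgrg6* and 5.63 ± 0.83 for *St8sia5*. In *Rag1*-/- mice it was 2.76 ± 0.40, 1.98 ± 0.27, 2.83 ± 0.42 and 5.36 ± 1.00, with a single gray matter library. Whether its size differed between genotypes was not tested. Fewer cells of a type and less RNA per cell cannot be told apart in these sums.

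The authors divided the oligodendrocytes into 8 clusters: Oligo1a, 1b and 1c, Oligo2a, 2b and 2c, age-related oligodendrocytes (ARO) and interferon-responsive oligodendrocytes (IRO). Oligo2a held 3.13 to 3.87% of the cells in gray and 9.04 to 13.4% in white matter libraries. Oligo2c was nearly confined to white matter, with 3 gray and 968 white matter cells, and ARO had 1 and 2137. The 5 genes were found chiefly in Oligo2a and Oligo2c. In CPM, *Nkx2-9* and *Adgrg6* were highest in Oligo2a and second in Oligo2c in each of the 5 white matter libraries. *Piezo2* and *St8sia5* were highest in CPM in Oligo2c. By share of cells with a UMI, *St8sia5* was higher in Oligo2a than in Oligo2c in every white matter library but WT library 1. In that library the share of *Adgrg6* was 25.0% in Oligo2c and 22.2% in Oligo2a. *Tmc3* was highest in CPM in Oligo2c in 4 libraries and in Oligo2a in *Rag1*-/- library 1. By share of cells it was also higher in Oligo2a than in Oligo2c in WT library 1 and *Rag1*-/- library 2.

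*Piezo2* had the widest reach into ARO, the cluster the study links to ageing. In white matter it had a UMI in 36.9% of Oligo2c cells (95% exact interval 33.8 to 40.0), 21.2% of Oligo2a cells (19.2 to 23.4), 12.9% of ARO cells (11.5 to 14.4) and 4.23% of Oligo2b cells (3.41 to 5.18). Intervals cover counting error only. The shares in Oligo1a, 1b and 1c were 0.683, 1.86 and 0.747%. Of all its white matter UMIs, 37.9% lay in Oligo2c, 25.8% in ARO and 25.3% in Oligo2a. The order of ARO and Oligo2a turned between libraries, since Oligo2a held more of these UMIs in *Rag1*-/- libraries 1 (103 against 48) and 2 (74 against 22) and ARO more in the other 3. By library, its level in Oligo2c was 47.7 and 73.5 CPM in WT and 45.3, 45.4 and 58.6 CPM in *Rag1*-/- mice, and in ARO 14 and 27.7 CPM in WT and 13.2, 14.8 and 24.0 CPM in *Rag1*-/- mice. The ranges of Oligo2c and ARO did not overlap.

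*Tmc3* and *Nkx2-9* were found in more Oligo2b cells than the other genes. *Tmc3* had a UMI in 39.8% of white matter Oligo2c, 35.4% of Oligo2a and 15.3% of Oligo2b cells, but in 6.13% of ARO cells. *Nkx2-9* had one in 80.8% of Oligo2a, 46.8% of Oligo2c and 26.3% of Oligo2b cells, against 2.95% of ARO cells. Oligo2a held 62.6% of its white matter UMIs, and cells with *Nkx2-9* carried on average 3.02 of its UMIs in Oligo2a and 1.54 in Oligo2b. *Nkx2-9* thus marked most Oligo2a cells and few ARO cells, whereas *Piezo2* was found in fewer Oligo2a cells and more ARO cells.

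*Adgrg6* was the most restricted to Oligo2a, which held 68.5% of its white matter UMIs. It had a UMI in 42.1% of Oligo2a and 21.9% of Oligo2c cells, but in 2.95% of Oligo2b and 0.889% of ARO cells. It had none in 241 white matter IRO cells, which allows a share of up to 1.24%. *St8sia5* had nearly equal shares in Oligo2a (29.97%) and Oligo2c (29.2%), with 2.28% of Oligo2b and 3.84% of ARO cells. In ARO its UMIs were bunched, since 9 of its 82 positive cells had 5 or more and 1 had 11. *Adgrg6* and *St8sia5* were thus both scarce in Oligo2b, a cluster with gray and white matter cells alike.

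Depth differs between clusters, and Oligo2a cells had the highest median UMIs, 12768 to 18661 by library. Cells were therefore thinned to 3000 UMIs each. The share with *Piezo2* then was 13.3% in Oligo2c, 5.48% in Oligo2a and 4.83% in ARO. Those with *Nkx2-9* were 36.2, 17.4 and 0.798% in Oligo2a, Oligo2c and ARO, and those with *Adgrg6* 12.8, 6.55 and 0.375%. *Tmc3* was at 14.2% in Oligo2c and 9.87% in Oligo2a, and *St8sia5* at 9.15 and 8.65%. Pooled over libraries, the order of these clusters remained for *Piezo2*, *Tmc3*, *Nkx2-9* and *Adgrg6*, although *Piezo2* in *Rag1*-/- library 3 was at 3.29% in Oligo2a and 5.43% in ARO, while Oligo2a and Oligo2c, close at both depths, changed places for *St8sia5*.

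**Figure D2:**
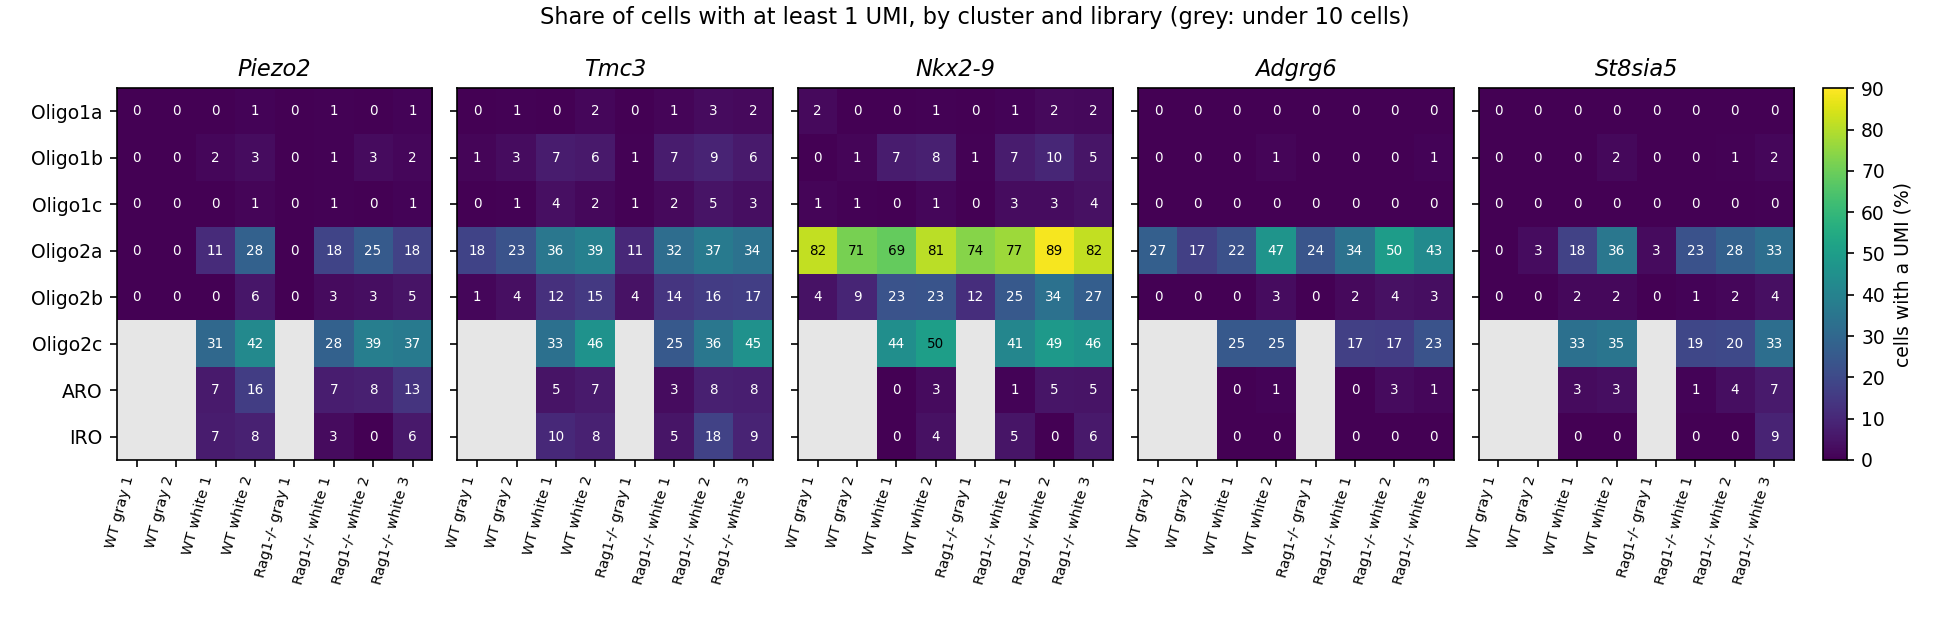
Share of cells in percent with at least 1 UMI of each gene, by cluster (rows) and library (columns), with clusters under 10 cells in grey. The bright Oligo2a row of *Nkx2-9* runs through gray and white matter, while the *Piezo2* Oligo2a row is at 0 in gray matter and at 11.1 to 28% in white matter.

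Oligo2a and Oligo2b hold cells of both tissues, so the genes could be set side by side within a cluster. *Nkx2-9* overlapped between tissues in Oligo2a. It was at 157 and 135 CPM in WT and 128 CPM in *Rag1*-/- gray matter, and at 120 and 161 CPM in WT and 166, 175 and 167 CPM in *Rag1*-/- white matter. It had a UMI in 62 of 84 gray (73.8%) and 1200 of 1485 white matter Oligo2a cells (80.8%). In CPM the other 4 genes were higher in every white than in every gray matter library within the same cluster. So were 4.33% of 8122 genes with at least 200 UMIs. By share of cells *Adgrg6* overlapped, at 17.1 to 27.3% in gray and 22.2 to 49.7% in white matter libraries.

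*Piezo2* was at 0 in Oligo2a of all gray matter libraries, with 0 of 84 cells, which allows a share of up to 3.57%. In white matter Oligo2a it was at 15.8 and 33.3 CPM in WT and 22.4, 20.3 and 18.3 CPM in *Rag1*-/- mice. *St8sia5* was at 0 and 1.78 CPM in WT and 1.83 CPM in *Rag1*-/- gray matter Oligo2a, from 2 cells, and at 20.2 and 39.0 CPM in WT and 25.7, 19.8 and 32.4 CPM in *Rag1*-/- white matter. For these 2 genes, Oligo2a cells of gray matter had nearly no UMIs although the cluster was there.

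*Tmc3* and *Adgrg6* lay between. *Tmc3* was at 13.1 and 16.0 CPM in WT and 11.0 CPM in *Rag1*-/- gray matter Oligo2a, and at 31.7 and 41.7 CPM in WT and 35.7, 29.7 and 32.6 CPM in *Rag1*-/- white matter. *Adgrg6* was at 26.2 and 23.1 CPM in WT and 25.7 CPM in *Rag1*-/- gray matter, and at 33.1 and 52.4 CPM in WT and 41.4, 48.0 and 48.2 CPM in *Rag1*-/- white matter. Its WT white matter library 1 was the closest to gray matter. The gray matter values of WT libraries 1 and 2 and the *Rag1*-/- library came from 11, 35 and 38 Oligo2a cells. These held 2, 9 and 6 UMIs of *Tmc3* and 4, 13 and 14 of *Adgrg6*. Thinned to 3000 UMIs, the pooled shares in gray and white matter Oligo2a were 26.2 and 36.2% for *Nkx2-9*, 8.33 and 12.8% for *Adgrg6*, 3.57 and 9.87% for *Tmc3*, 1.19 and 8.65% for *St8sia5* and 0 and 5.48% for *Piezo2*. By library, these thinned shares overlapped between tissues for every gene but *Piezo2*.

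In Oligo2b *Nkx2-9* did not overlap between tissues. It was at 5.42 and 11.2 CPM in WT and 15 CPM in *Rag1*-/- gray matter, below the 23.3 and 34.5 CPM of WT and the 34.1, 42.4 and 36.7 CPM of *Rag1*-/- white matter. *Tmc3* was at 1.36 and 3.15 CPM in WT and 4.72 CPM in *Rag1*-/- gray matter and at 13.3 to 20.7 CPM in white matter. *Piezo2* and *St8sia5* had no UMI in 662 gray matter Oligo2b cells, which allows a share of up to 0.453%, and *Adgrg6* had one in 1 cell. *Tmc3* and *Nkx2-9* were higher in every white than in every gray matter library in Oligo2b, as were 3.75% of the 8612 genes with at least 200 UMIs in that cluster. *St8sia5*, *Piezo2* and *Adgrg6*, with 56, 125 and 90 UMIs in white matter Oligo2b, were not among those genes. *Piezo2* and *Adgrg6* were also at 0 in WT white matter library 1.

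**Figure D3:**
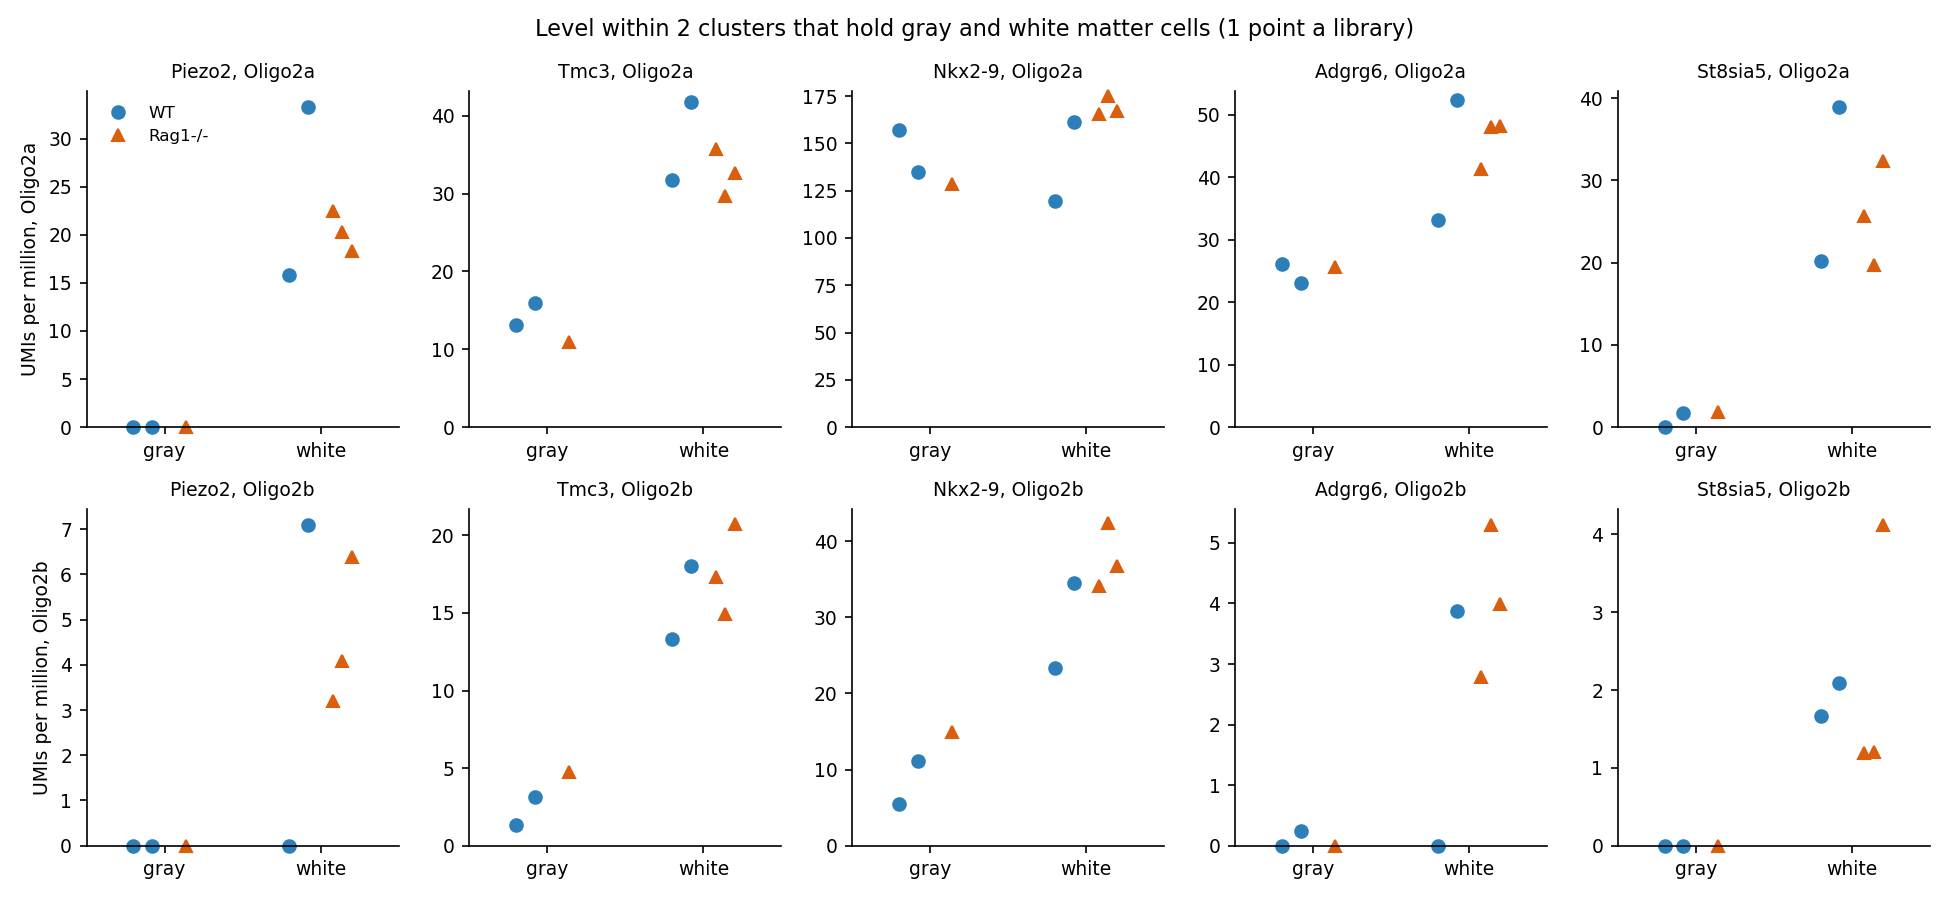
Level in CPM within Oligo2a (top) and Oligo2b (bottom), with gray and white matter on the horizontal axis, circles for WT and triangles for *Rag1*-/- libraries. In Oligo2a the tissues overlap in CPM for *Nkx2-9* alone of the 5 genes, at 128 to 157 CPM in gray and 120 to 175 CPM in white matter. By share of cells *Adgrg6* overlaps too, at 17.1 to 27.3% in gray and 22.2 to 49.7% in white matter libraries.

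The genes were often found in the same cells. Of the white matter oligodendrocytes, 3693 (28.1%) had a UMI of at least 1 of the 5 genes and 947 (7.20%) of 3 or more. All 5 were detected in 95 cells, 46 of them in Oligo2c, 42 in Oligo2a and 7 in ARO. In gray matter 182 cells (7.40%) had at least 1 gene, 5 cells had 3, and no cell had 4 or 5.

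Within a cluster, the number of cells with both genes of a pair was set against the product of their shares. In white matter Oligo2c, *Adgrg6* and *St8sia5* were found together in 132 cells against 64.3 expected, a ratio of 2.05 that ran from 1.90 to 2.38 by library. *Piezo2* and *Adgrg6* had 134 cells against 79.5, and *Nkx2-9* and *Adgrg6* 167 against 99.99. The 10 pairs had ratios of 1.26 to 2.05 in Oligo2c and 1.06 to 1.53 in Oligo2a. The ratio of a pair cannot exceed the inverse of its larger share, and *Nkx2-9* was in 80.8% of Oligo2a cells, so the ratios of the clusters were not compared.

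The few ARO cells with *Adgrg6* stood out. Of 19 such cells among 2137, 17 also had *Piezo2* and 15 had *St8sia5*, against 2.60 and 0.941 expected. These ARO counts came from 3 white matter libraries, WT library 2 and *Rag1*-/- libraries 2 and 3. Of the 275 ARO cells with *Piezo2*, 27 also had *Nkx2-9* against 8.63 expected, and 51 had *St8sia5* against 11.3.

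Depth moved with these counts. Median UMIs per cell in Oligo2c were 10875 in cells with none of the genes and 14887 in cells with 3 or more, and in ARO 9860 and 15298. Thinned to 3000 UMIs a cell, *Piezo2* and *Adgrg6* in Oligo2c had 21 cells against 8.65 expected and *Adgrg6* and *St8sia5* 10 against 6.14. The pooled ratios of all 10 pairs stayed above 1 in Oligo2c at this depth, but 8 of them were below 1 in at least 1 library. *Adgrg6* and *St8sia5* ran from 0 to 5.61 by library. In Oligo2a the pooled ratios of 3 of 10 pairs were below 1. *Piezo2* and *Tmc3* were then together in 2 cells against 8.40 expected, below 1 in every library, where the unthinned count was 138 against 113. *Tmc3* was together with *Adgrg6* in 18 against 18.8 and with *St8sia5* in 13 against 13.04. In ARO 8 cells with *Adgrg6* were left, of which 4 had *Piezo2* and 3 *St8sia5*, against 0.461 and 0.171 expected. *Piezo2* and *Nkx2-9* were together in 2 ARO cells against 0.948, and *Nkx2-9* was in no cell with *Adgrg6* or *St8sia5*. Doublets were not searched for here, and their part in the joint counts was not tested.

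**Figure D4:**
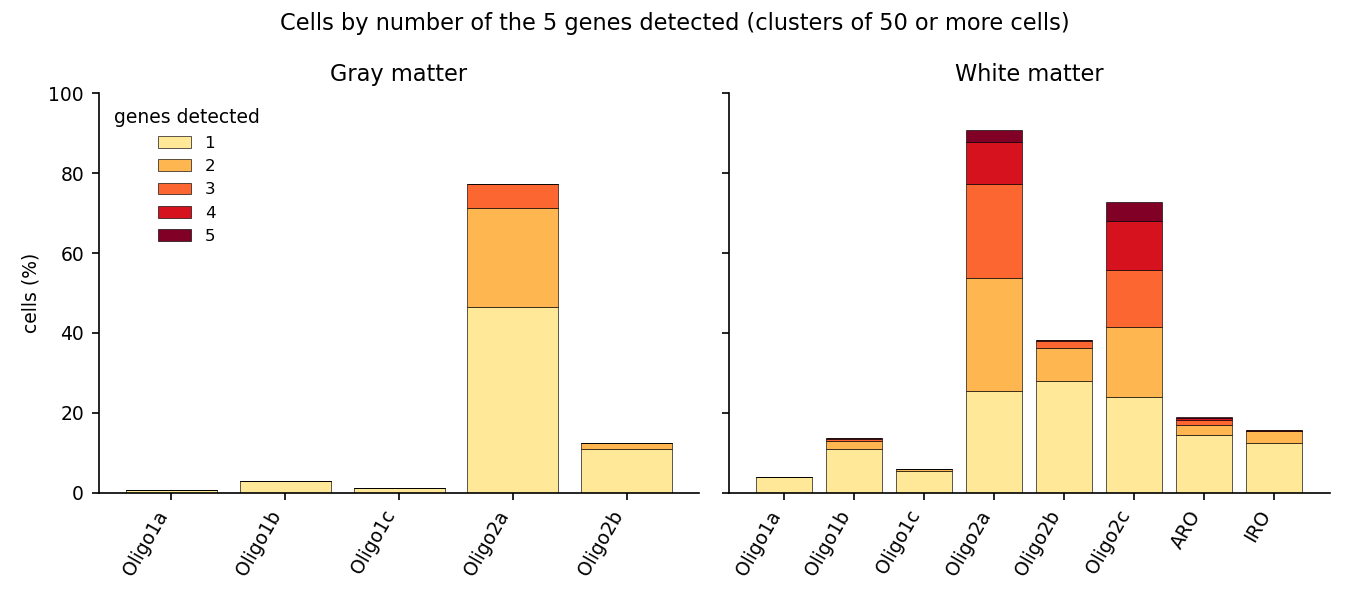
Cells in percent by how many of the 5 genes had a UMI, in clusters of 50 or more cells of gray (left) and white matter (right). In white matter 550 of 1485 Oligo2a cells and 303 of 968 Oligo2c cells had 3 or more genes, against 5 of 84 Oligo2a cells in gray matter.

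Other genes shared these patterns. Likeness was Pearson's r of log2(CPM + 5) over 44 sums of library and cluster with at least 50 cells, among 10838 genes. It is a description, as the sums share libraries, depth and clusters. *Piezo2* was most like *Klk6* (r = 0.949), a secreted serine protease, followed by *St8sia5* (0.924), *Aldh1l2*, *Marcksl1* and *Fgfrl1* (0.904). Among the genes most like *St8sia5* were *Map1b* (0.937), *Adgrg6* (0.927), *Piezo2* and *Bambi* (0.921).

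*Nkx2-9* was most like *S100b* (0.978), the calcium-binding protein, then *Arfgef3*, *Slc34a3*, *Cntn3* and *Rgmb* (0.947). *Adgrg6* was most like *Mfsd4b1* (0.979), *Slc9b2*, *Ncs1*, *Sema5a* and *Nid1* (0.9496), and *Tmc3* was most like *Cntn3* (0.954), *Adam11*, *Iqsec1*, *Serpind1* and *Arfgef3* (0.922). Among the 5 genes r ran from 0.718, between *Piezo2* and *Nkx2-9*, to 0.928, between *Nkx2-9* and *Adgrg6*. *Piezo2* and *Nkx2-9* were thus the least alike pair. No sum of gray matter Oligo2a had enough cells to enter these values.

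*Rag1*-/- and WT white matter were compared, a contrast other than that of tissue which put the genes together. Genotype coincides with batch, so an effect of lymphocytes cannot be told apart from it. None of the 5 genes passed an adjusted p of 0.05 in edgeR's quasi-likelihood test, nor in DESeq2, and 1 had an unadjusted p under 0.05 in each, where 8.29% of all genes had in edgeR. Of 13067 genes tested, 119 (0.911%) passed in edgeR. *Nkx2-9* was higher in each of the 3 *Rag1*-/- libraries than in both WT libraries, at 41.0 to 46.9 against 22.8 and 35.9 CPM, as were 10% of all genes. Its log2 fold change was 0.63 ± 0.18 (95% interval 0.22 to 1.03) with an adjusted p of 0.299 in edgeR. Without WT white matter library 2 it was 1.04, and without WT white matter library 1 it was 0.37. Each of these fits left a single WT white matter library. The share of Oligo2a cells moved with it, at 9.04 and 9.11% in WT and 11.6 to 13.4% in *Rag1*-/- white matter, and its part in the difference was not tested. Within Oligo2a the log2 fold change was 0.29 ± 0.15 (-0.03 to 0.61), where the libraries did not overlap either, as in 24.8% of genes tested in that cluster.

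The other genes overlapped between genotypes. The log2 fold change of *Rag1*-/- over WT white matter was -0.48 ± 0.28 (-1.11 to 0.16) for *Piezo2*, 0.01 ± 0.22 (-0.50 to 0.52) for *Tmc3*, 0.36 ± 0.24 (-0.18 to 0.90) for *Adgrg6* and -0.16 ± 0.39 (-1.03 to 0.71) for *St8sia5*, with adjusted p of 0.734, 0.997, 0.758 and 0.970 in edgeR. The intervals of *Piezo2* and *St8sia5* reached a 2-fold lower level in *Rag1*-/- mice, and those of *Tmc3* and *Adgrg6* stayed within 2-fold in both directions. WT white matter library 2 had the highest *Piezo2* and *St8sia5* levels of all libraries. Without it their log2 fold changes were 0.05 and 0.76.

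Within single clusters, 25 of the 35 pairs of gene and cluster passed the filter on low counts and none passed an adjusted p of 0.05 in edgeR or DESeq2, against 0.865% of all pairs tested. At an unadjusted p under 0.05 there were 3 in edgeR and 1 in DESeq2, where 5.79% of all pairs were in edgeR. These 3 were *Nkx2-9* in Oligo1a and Oligo1c, with 5 and 14 UMIs in WT, and *St8sia5* in Oligo2c. *St8sia5* in Oligo2c was at 25.7 and 60.3 CPM in WT and 26.2, 21.2 and 40.5 CPM in *Rag1*-/- white matter, which overlap, with a log2 fold change of -0.66 ± 0.30 and an adjusted p of 0.963 in edgeR. *Piezo2* in Oligo2c had -0.31 ± 0.21 (-0.77 to 0.14). Without WT white matter library 2 both directions in Oligo2c turned, to 0.31 for *St8sia5* and 0.14 for *Piezo2*. *Piezo2* in ARO had -0.29 ± 0.30 (-0.94 to 0.36).

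The share of cells with a UMI was compared between the same libraries. *Nkx2-9* was found in 12.6 and 16.2% of WT and in 17.5, 22.3 and 21.4% of *Rag1*-/- white matter cells, a difference of 6.04 percentage points with p = 0.2 in the exact two-sided permutation test. With 2 against 3 libraries and the one-sided p doubled, 0.2 is the smallest p possible. *Piezo2* was found in 5.26 and 11.2% of WT and in 5.83, 6.99 and 8.50% of *Rag1*-/- white matter cells, and the groups overlapped.

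**Figure D5:**
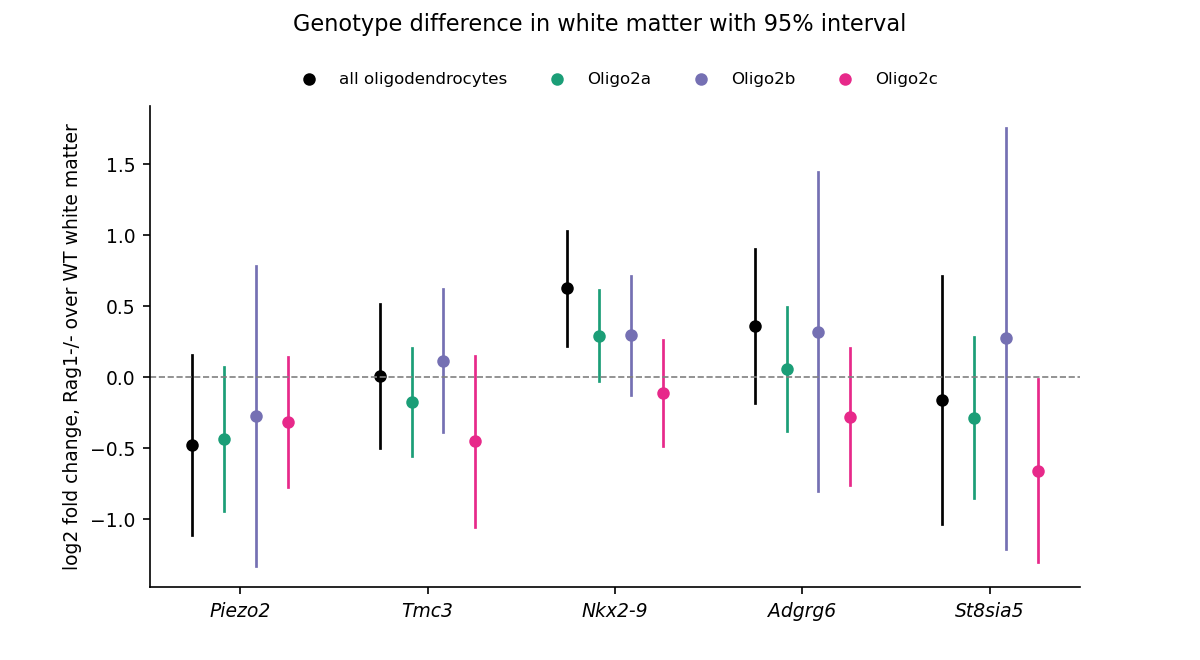
Log2 fold change of *Rag1*-/- over WT white matter from edgeR with its 95% interval, for all oligodendrocytes and within Oligo2a, Oligo2b and Oligo2c. The intervals of *Nkx2-9* over all oligodendrocytes (0.22 to 1.03) and of *St8sia5* in Oligo2c (-1.30 to -0.01) lie off 0, neither passed after adjustment, and the latter difference turned to 0.31 without WT white matter library 2.

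Microglia served as cells that should lack these genes. In 5689 white matter microglia named by the authors, all of *Rag1*-/- mice, with library medians of 5416 to 6751 UMIs a cell, 6 cells had *Piezo2* (0.105%), 8 *Tmc3* (0.141%), 17 *Nkx2-9* (0.299%), 3 *Adgrg6* (0.0527%) and 5 *St8sia5* (0.0879%). These microglia had fewer UMIs a cell than the oligodendrocytes, and the source of the UMIs in them was not tested. *Adgrg6* in white matter Oligo1a (0.0402%) and Oligo1c (0.107%) was at about that level, and so was *St8sia5* in Oligo1a (0.121%).

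Outside the oligodendrocyte table, 14249 cells were clustered and named from marker genes. *Piezo2* had no UMI in any of the 3778 gray matter cells among them, which allows a share of up to 0.0794%. In white matter 65 of 10471 such cells had it, 47 of them among 836 oligodendrocyte-like cells (5.62%) that the oligodendrocyte table does not hold. *St8sia5* was found in astrocyte-like cells of both tissues, in 42 of 909 cells (4.62%) in gray and 27 of 1019 (2.65%) in white matter, and in neuroblast-like cells, in 3 of 6 in gray and 9 of 538 (1.67%) in white matter. *Adgrg6* was found in macrophage-like cells, in 7 of 174 (4.02%) in gray and 10 of 229 (4.37%) in white matter. *St8sia5* was thus near 0 in gray matter oligodendrocytes but not in gray matter astrocyte-like cells.

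Relatives and partners of the 5 genes were taken from 7 lists. These were chosen with earlier results of these data known, so the counts that passed are a description. In WT white over gray matter, 2 of 99 other genes tested passed an adjusted p of 0.05 in edgeR, against 1% of all genes. *St3gal6*, a sialyltransferase, was lower in white matter, at 17.2 and 8.80 against 3.86 and 2.74 CPM (log2 fold change -1.95 ± 0.34, adjusted p = 0.0378 in edgeR). *Myof*, which encodes the membrane repair protein myoferlin and was listed as a YAP and TEAD target, was higher, at 2.92 and 1.12 against 6.70 and 12.4 CPM (2.65 ± 0.48, adjusted p = 0.0434 in edgeR). With the mice as a block 17 of the 99 passed, 6 higher and 11 lower, where 4.43 and 3.59% of all genes were higher and lower.

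In *Rag1*-/- white over gray matter 1 of 99 passed, against 0.436% of all genes. It was *Adgrl3*, an adhesion receptor like ADGRG6, lower at 8.67, 4.74 and 6.49 against 22.5 CPM (-1.75 ± 0.26, adjusted p = 0.0311 in edgeR). With the block 11 passed, 3 higher and 8 lower, against 1.94 and 1.68% of all genes. Under the block this *Rag1*-/- contrast rested on white matter library 1 against the single gray matter library of its batch, without a replicate. The other *Rag1*-/- white matter libraries had no gray matter partner, so these block counts are a description. In WT mice with the block, *Lama2*, which encodes a laminin chain of the family that binds ADGRG6, passed as higher in white matter. *Adgrl3*, *St3gal6*, *St3gal1*, *Tcf7l2*, *Lhx2*, *Nt5e* and *F3* passed as lower. These were picked from the WT genes by their *Rag1*-/- values, which had no replicate. *F3* was also a top gene of astrocyte-like clusters, and astrocyte markers were higher in gray matter. The part of astrocyte RNA in its difference was not tested. *Lama2* rose by 0.63 ± 0.12 in WT mice on the log2 scale with the block. In *Rag1*-/- mice it rose by 1.01, from 1 library of each tissue.

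By family, 0 of 12 other mechanosensitive channel genes passed in either tissue contrast without the block, although *Tmem63a* was at 244 to 326 CPM and *Tmc7* at 40.9 to 58.1 CPM in all libraries. At an unadjusted p under 0.05 there were 2 in each genotype, where 9.58% of all genes were in WT and 9.62% in *Rag1*-/- mice, and DESeq2 called 0. Their median log2 fold change of white over gray matter was -0.16 in WT and -0.02 in *Rag1*-/- mice, against -0.01 and 0.02 over all genes. Of 15 other adhesion receptors 0 and 1 passed, of 14 *Adgrg6* ligand and cAMP genes 0 and 0, of 18 other sialyltransferase and ganglioside genes 1 and 0, of 7 NK and lineage factors 0 and 0, of 14 regional patterning genes 0 and 0 and of 19 YAP and TEAD targets 1 and 0. With the mice as a block, WT mice had 1 of the mechanosensitive channel genes, 3 of the adhesion receptors and 1 of the ligand and cAMP genes. They also had 5 of the sialyltransferase and ganglioside genes, 0 of the NK and lineage factors, 2 of the patterning genes and 5 of the YAP and TEAD targets. The channel gene was *Cib2*, which encodes a partner of the TMC channels of hair cells, lower in white matter (log2 fold change -1.22 ± 0.33, adjusted p = 0.0230 in edgeR with the block). *Nkx2-2*, the close relative of *Nkx2-9* in oligodendrocytes, was at 54.5 and 55.9 CPM in WT gray and 47.6 and 60.2 CPM in WT white matter and did not pass (-0.01 ± 0.15). Between the genotypes in white matter 0 of the 99 passed in edgeR, with 8 at an unadjusted p under 0.05 and 1 call in DESeq2.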

How the data were processed

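Groups come from the sample labels. The authors deposited raw UMI counts of each gene in each cell, made with Cell Ranger and filtered for genes, UMIs and mitochondrial RNA. The upper UMI limit for a cell was not the same in all batches. The study's methods name versions 3.0.2, 4.0.0 and 6.1.2, and the submitters' processing notes name Cell Ranger 4 and mm10. Cluster names are the authors'. The 5 genes and all gene lists were chosen with earlier results of these data known.

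Counts were summed over the oligodendrocytes of a library. Of 17001 genes listed for both genotypes, *Gm42418* and *AY036118* were left out because the authors had removed them from some libraries. edgeR 4.0.16 (R 4.3.3) was run on 4 groups (tissue by genotype) after filterByExpr and TMM scaling, by its quasi-likelihood F test (two-sided), which for the members was read between genotypes only. Genes at a Benjamini-Hochberg adjusted p of 0.05 were called, and 13067 were tested. Clusters with at least 20 cells in each white matter library were fitted likewise. On simulated counts edgeR recovered 57.5% of 2-fold and 81.2% of 4-fold changes between genotypes, with 10.4% of calls false. CPM is UMIs per 1000000 UMIs of all genes in the table. For lists, CPM refers to the genes entering the fits. Cells under 3000 UMIs (145) were left out of thinned values. A limit for a count of 0 is 3 counts, and intervals are exact Clopper-Pearson intervals at 95%, which cover counting error only. The labels do not say how replicate libraries relate beyond the batch, so p-values measure the spread between these libraries.

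Named genes are the 5, genes of the lists that passed in a contrast, and the 5 genes most like each. Results for some genes are not reported here. The mechanosensitive channel genes *Tmem63a* and *Tmc7*, and *Nkx2-2*, were named after their values were seen. Genes named as passing under the block were named likewise. Gray and white matter of a batch came from the same mice, which pairs them, and residuals of the WT pairs had r = 0.409 across genes. With 2 libraries a group both pairs give the same value by construction, and mice cannot be told apart from batch. Batch numbers shared between genotypes are only numbers (r = 0.0586, 0.138 and -0.0661). Alternatives were DESeq2 1.42.0, library size alone, no filter, 2 groups alone, leaving out Oligo2c and ARO, thinning, each library left out, replicate blocks and, chosen after seeing the data, the edgeR 4 form of the fit. Other cells were clustered with leidenalg 0.10.2 (2000 variable genes, 30 components, 15 neighbours, resolution 1) and named from fixed markers. In the table of microglia 8171 cells of another series were not used. Sequences are from RefSeq, positions from GENCODE vM21, both GRCm38.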

Additional observations from a re-analysis of the deposited data

How the results depend on the processing

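Between genotypes 195 genes were called with DESeq2, where edgeR called 119, and 80 to 137 with a library left out. With the batch number shared across genotypes as a replicate block 126 were called, none of them a member. The libraries share only that number. For WT white over gray matter, edgeR called 131, DESeq2 282, the 2 groups alone 62, cells without Oligo2c and ARO 46, thinned cells 65, the replicate block of mice 1048, and fits without a library 2 to 107, the lowest without WT gray matter library 2. For *Rag1*-/- white over gray matter, edgeR called 57, DESeq2 204, no filter 140, thinned cells 36, the replicate block 474, and fits without a library 16 to 264, the lowest without *Rag1*-/- white matter library 2. The causes were not tested. The genotype difference of *Tmc3*, 0.01, was -0.0428 with library size alone, -0.00483 with 2 groups alone, -0.0257 thinned, -0.0174 with the replicate block, -0.0384 in the edgeR 4 form and -0.21 to 0.36 with a library left out. Its share of cells turned to -0.396 points at 2 or more UMIs and -0.206 thinned, with p = 0.8 in the exact permutation test in both. *St8sia5* was 0.13 without Oligo2c and ARO and -0.59 to 0.76 with a library left out, *Piezo2* -0.78 to 0.0469, *Nkx2-9* 0.37 to 1.04 and *Adgrg6* 0.08 to 0.89. Within Oligo2a, leaving out a library gave -0.64 to 0.40 for *Piezo2*, -0.27 to 0.0912 for *Tmc3*, -0.11 to 0.52 for *Adgrg6* and -0.50 to 0.44 for *St8sia5*, and within Oligo2c -0.47 to 0.14 for *Piezo2*, -0.85 to 0.00691 for *Tmc3*, -0.22 to 0.19 for *Nkx2-9* and -0.99 to 0.31 for *St8sia5*. The highest value of each of these gene ranges was without WT white matter library 2. No member was called in any of these fits between genotypes that kept both WT white matter libraries. In fits of *Rag1*-/- gray matter, the lone library was assumed to vary like the other groups, as was a library left alone in its group. Under the replicate block, the *Rag1*-/- tissue contrast rested on white matter library 1 and the gray matter library of its batch alone. Of 344 values under alternatives, 263 kept their direction and their size or side of the threshold. The 2 WT white matter libraries held 494 and 4106 cells, and how far their depth limits the comparison of genotypes was not tested.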
